A study of Mus musculus with 17 samples.

Results

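The 39 genes described here are immediate-early response genes and heat shock genes of the mouse, taken as a named list out of the 55335 genes in the count files and followed through all 17 libraries. They were grouped by role: 4 FOS genes, 4 JUN and ATF genes, 3 EGR genes, 4 KLF genes, 3 NR4A genes, 5 other early response genes, 8 brakes and growth arrest genes, and 8 chaperones. Bulk RNA-seq was made from skeletal stromal cells (SSC) and osteoprogenitor cells (OPC) of bone in 3 genotypes: wild-type (WT, Cxcr4+/+), Cxcr4+/1013 and Cxcr41013/1013, written +/1013 and 1013/1013 below. There were 3 libraries per group except for 1013/1013 SSC, which had 2.

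The 1013 allele is a knock-in, in the germ line, that cuts off the end of the cytoplasmic tail of the chemokine receptor CXCR4 and gives a receptor that resists desensitization, as in WHIM syndrome. A truncated transcript is still counted, so Cxcr4 counts do not check the genotype labels. All mice were female littermates of 8 to 12 weeks with no other treatment, and each library came from 3000 sorted cells pooled from 3 mice. Both gates took CD51+ cells without the blood and endothelial markers CD45, TER119 and CD31. SSC were Sca-1+ and PDGFRα+, and OPC were Sca-1- and PDGFRα+/-. In all groups the bones had been digested with collagenase for 45 min at 37 °C before the sort, and the libraries were amplified from total RNA with an ultra-low-input kit. There was no undigested control. The p-values below measure the spread between pools.

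Immediate-early genes are transcribed within minutes of a stimulus, without new protein synthesis, through serum response factor, ternary complex factors and CREB that already sit on their promoters. Their products are transcription factors (FOS, JUN, EGR, KLF and NR4A families) and, a little later, feedback brakes such as the MAP kinase phosphatases and the mRNA-destabilising protein Zfp36. Heat shock genes encode chaperones that hold or refold proteins, and heat shock factor 1 drives the inducible ones when unfolded protein accumulates. Both sets are known to respond to warm enzymatic digestion of a tissue, and in bone FOS and JUN proteins also act in osteoblasts.

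The DNA just before the start of 5 of these genes is shown with short motifs marked: the heat shock element, the cAMP response element or the TATA box. Hspa1a and Hspa1b are shown together because these stretches are nearly identical. The sequences are from RefSeq (GRCm38.p6), run 5′ to 3′ on the strand of the gene, and carry a motif in capitals. The first 3 are the 150 bases before the start of small heat shock gene Hspb1 (chr5:135887769-135887918, plus strand) and of the inducible HSP70 genes Hspa1a (chr17:34972157-34972306, minus strand) and Hspa1b (chr17:34959239-34959388, minus strand), with the heat shock element GAANNTTC in capitals.
Hspb1: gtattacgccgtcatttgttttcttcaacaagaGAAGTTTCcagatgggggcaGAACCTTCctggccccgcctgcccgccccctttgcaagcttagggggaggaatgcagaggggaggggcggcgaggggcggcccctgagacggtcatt
Hspa1a: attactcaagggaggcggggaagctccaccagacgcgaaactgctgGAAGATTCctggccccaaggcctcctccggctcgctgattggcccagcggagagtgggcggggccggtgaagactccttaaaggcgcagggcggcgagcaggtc
Hspa1b: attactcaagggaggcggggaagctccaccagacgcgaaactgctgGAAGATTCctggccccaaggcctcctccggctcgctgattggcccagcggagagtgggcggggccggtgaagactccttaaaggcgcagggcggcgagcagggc
The next is the same window of Fos (chr12:85473740-85473889, plus strand), with the TATA box TATAAA in capitals. The last is the stretch of Dusp1 (chr17:26508520-26508622, minus strand) from 150 to 48 bases before its start, with the cAMP response element (CRE) TGACGTCA in capitals.
Fos: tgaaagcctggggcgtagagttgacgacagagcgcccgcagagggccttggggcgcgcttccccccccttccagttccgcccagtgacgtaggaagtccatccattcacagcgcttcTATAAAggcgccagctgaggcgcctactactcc
Dusp1: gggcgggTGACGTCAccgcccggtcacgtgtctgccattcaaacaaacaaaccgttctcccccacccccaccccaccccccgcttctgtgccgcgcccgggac

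Hspb1 held 2 copies of the heat shock element in this window, and Hspa1a and Hspa1b 1 copy each. The windows of Hspa1a and Hspa1b were identical at 149 of 150 bases. Their coding sequences (1926 and 1929 bases) were 99.4% identical. Reads that aligned to more than 1 place, 5.1% to 10.4% in a library, were assigned to no gene. The levels of this pair can therefore be too low, and the balance within the pair is uncertain. Promoters were given for 31 of the 39 genes. In the 250 bases before the start, searched on both strands, the heat shock element in either order of its blocks (GAANNTTC or TTCNNGAA) was present in 7 of the 31: Hspa1a, Hspa1b, Hspb1, Hsph1, Dnaja1, Jun and Fosl2. The share over all 32841 promoter windows of the same length was 12.8%. The element with a further block (GAANNTTCNNGAA or TTCNNGAANNTTC) was in 0 of the 31 and in 0.466% of all windows. The CArG box (CC, a run of A and T, then GG) was found in Dusp5 and Zfp36, against 1.47% of all windows. The CRE stood in Btg2 and Dusp1, against 1.55% of all windows, and the TATA box in Fos, Gadd45b, Gadd45g and Nr4a2, against 12.4%. The EGR site GCGTGGGCG or GCGGGGGCG was present in 9 of the 31, against 3.06%, and the AP-1 site TGANTCA in 0, against 6.75%. These matches are letters only and were not tied to binding.

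Depth was 64099849 to 92683497 counts in genes for OPC libraries and 44217695 to 50509592 for SSC libraries. Levels below are CPM, the counts scaled to a library of fixed size, after TMM normalisation over all 17 libraries. On this scale 3 counts corresponded to 0.0407 to 0.0628 CPM in OPC and 0.0449 to 0.0575 CPM in SSC. The sort was visible in the counts: Ly6a, which encodes Sca-1, was at 0.569 to 12.4 CPM in OPC and 386 to 1450 CPM in SSC, and 8 osteoblast genes summed to 172500 to 535600 CPM in OPC and 5713 to 21830 CPM in SSC. Col1a1 and Col1a2 alone took 16.1% to 38.7% of OPC counts. Leukocyte transcripts made up 1.96% of WT OPC replicate 3, 1.66% of 1013/1013 OPC replicate 2 and 1.72% of WT SSC replicate 3, but at most 0.208% of the other 14 libraries, although CD45 was gated out. The 20 leukocyte markers summed to 62.5 to 26760 CPM in OPC and 65.1 to 12100 CPM in SSC, with 17 to 20 of them at 1 CPM or more in a library of each group and none at 0 throughout. In bulk samples, fewer cells of a type and less RNA per cell cannot be told apart.

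Most of these genes were abundant in both populations. Per kilobase of exon, Fos, which pairs with Jun in the AP-1 transcription factor, ranked 1 of 39 with a median level of 2010 CPM per kb in OPC and 2660 in SSC. Egr1, a zinc finger factor induced by ERK signalling, ranked 2 in both, with a median of 575 CPM per kb in OPC and 589 in SSC. Below them the order differed. Atf3, a stress-induced partner of JUN, ranked 3 in OPC at 506 CPM per kb, while Junb ranked 3 in SSC at 537 CPM per kb. Hspa8, the constitutive HSP70 of the cytosol, ranked 21 in OPC at 52.0 CPM per kb and 12 in SSC at 230 CPM per kb. In SSC the neighbours Junb, Dusp1, Jun and Atf3 (537, 466, 464 and 463 CPM per kb) lay closer together than the libraries of any of them.

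At the lower end, Egr2 had 1 count in each of 2 OPC libraries and 0 in the other 15, which in SSC allowed a level of up to 0.0449 to 0.0575 CPM, and it dropped out of the tests. The other 38 genes passed the filter on low counts in every comparison. Jund, an AP-1 gene that most cells express, had only 8 to 55 counts per library (0.158 to 0.747 CPM). Of its exon bases, 52.6% lie opposite Gm11175, which had 0 counts in every library, and reads from opposite strands cannot be told apart in these libraries. The level of Jund is therefore not read further. Shares of exon bases opposite another gene were 57.2% for Fosl1 (with Ccdc85b), 22.1% for Dusp5 (AC137853.2) and 19.0% for Hspa1a (Gm20481), and at most 7.52% for the other members.

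**Figure D1:**
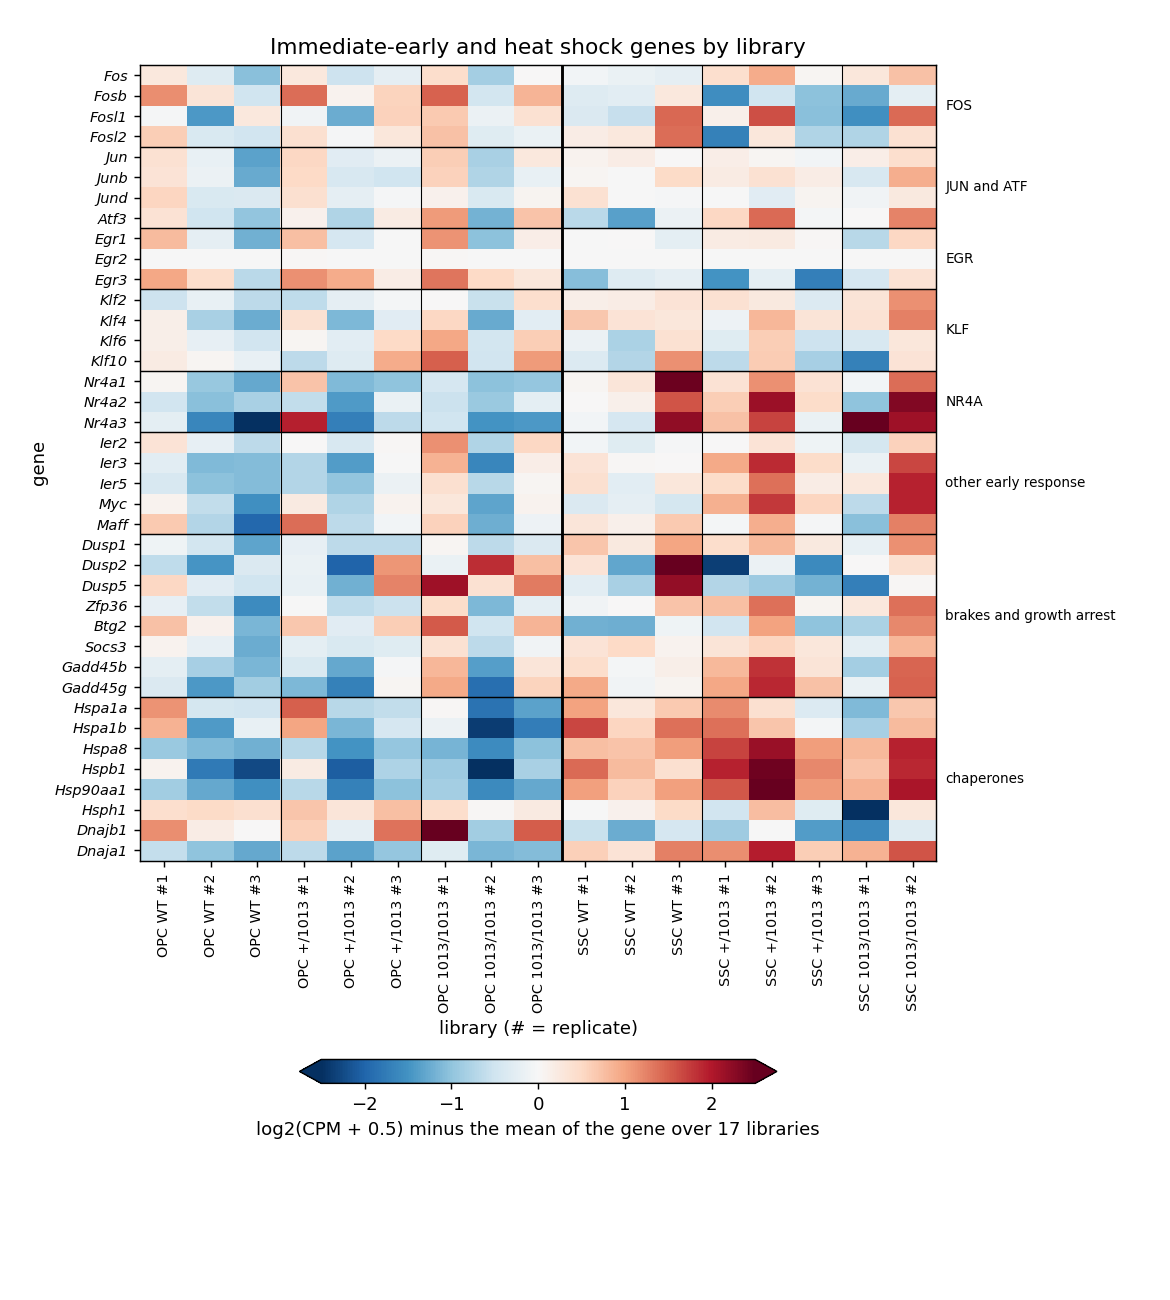
Levels of the 39 genes (vertical axis, grouped by role) in the 17 libraries (horizontal axis), as log2(CPM + 0.5) minus the mean of the gene over all 17 libraries; colours are clipped at 2.5 either way. The chaperones Hspa8, Hspb1, Hsp90aa1 and Dnaja1 separate SSC from OPC, and whole columns of immediate-early genes differ between libraries of the same group.

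The median member, chaperones included, varied between libraries of 1 group more than the median gene did. Where the mean level reached 10 CPM, the median replicate SD on the log2 scale was 0.72 for 34 members in OPC, against 0.36 for 7956 genes. In SSC it was 0.70 for 35 members against 0.36 for 8124 genes. Single members differed: in SSC the SD ran from 0.12 for Jun to 2.43 for Dusp2, with Fos at 0.32 and Egr1 at 0.40. The libraries were then described by the members with at least 10 counts in every library of a cell type, 36 in OPC and 38 in SSC. In OPC, the median deviation of a library from the mean of its cell type was 0.38, -0.23 and -0.67 for WT replicates 1 to 3, 0.30, -0.43 and 0.20 for +/1013, and 0.77, -0.63 and 0.33 for 1013/1013. Each genotype of OPC thus held libraries on both sides of the mean.

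The library of OPC highest in these genes was 1013/1013 replicate 1, which had the top value for 25 of the 36 members and the lowest share of type I collagen counts, 16.1%. The OPC libraries lowest in them were WT replicate 3, with the bottom value for 17 of 36, and 1013/1013 replicate 2, with the bottom value for 12 of 36. Those are the 2 OPC libraries with over 1% leukocyte transcripts, and the part of collagen or leukocyte RNA in the pattern was not tested.

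In SSC, the median deviations were -0.06, -0.44 and 0.21 for WT, -0.01, 0.67 and -0.31 for +/1013, and -0.63 and 0.65 for 1013/1013. The 2 libraries of 1013/1013 SSC were at opposite ends: in replicate 2 all 38 members lay above the mean, and in replicate 1 only 5 did, with the bottom value for 19. Others were mixed, with 15, 22 and 17 of 38 members above the mean in WT replicates 1 and 3 and +/1013 replicate 1. In WT replicate 3 the median deviation was 1.08 over the FOS genes and 1.15 over the NR4A genes, but -0.08 over the JUN and ATF genes and -0.30 over the other early response genes. Replicate 1 of 1013/1013 also had the most mitochondrial counts of all libraries, 2.36%, and the fewest genes with a count, 15748. The spread of the median member between replicates, pooled over genotypes, was 0.53 in OPC and 0.55 in SSC on the log2 scale.

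**Figure D2:**
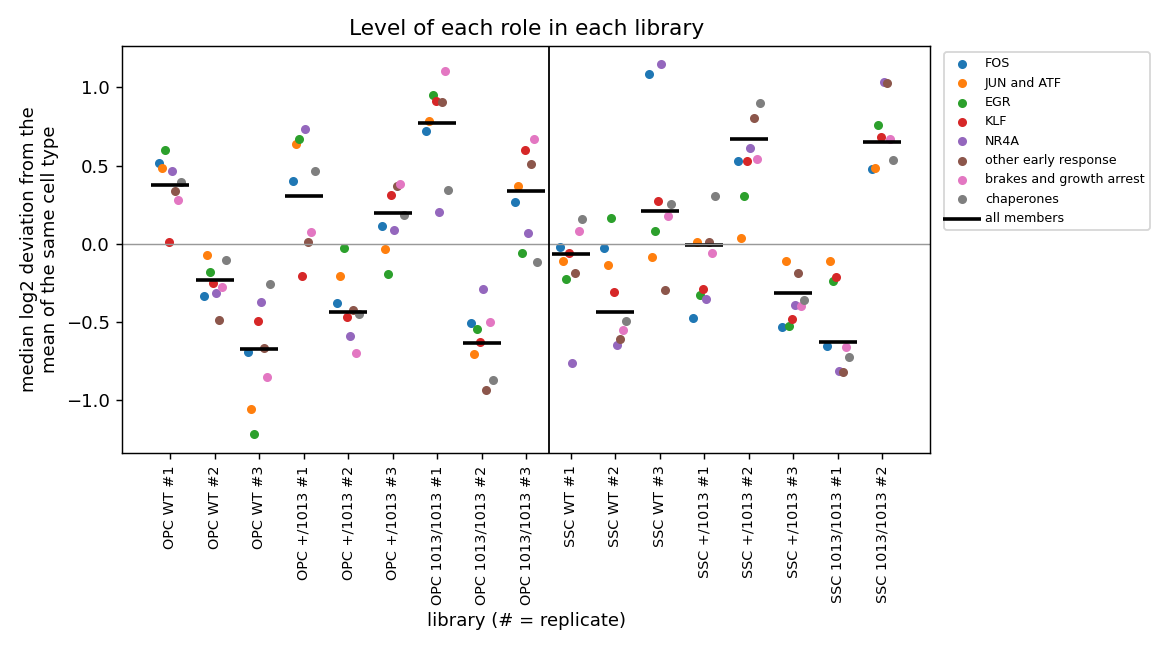
Median deviation of each role group in each library from the mean of its cell type, in log2 units of CPM + 0.5 (vertical axis), by library (horizontal axis); coloured points are role groups and black bars the median over all members with at least 10 counts in every library of that cell type. The black bars run from -0.67 to 0.77 in OPC and from -0.63 to 0.67 in SSC, with high and low libraries in the same genotype.

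SSC were compared with OPC within each genotype to ask whether the level of these genes differs between the 2 populations. Chaperones made up most of the members called in the main edgeR fit, but not of those called by DESeq2 in +/1013. In the main fit Hspa8, Hsp90aa1 and Dnaja1 were higher in SSC in all 3 genotypes and Hspb1 in both mutant genotypes. Fos, Jun and Egr1 passed the test in none. A gene was called at an adjusted p under 0.05 and at least 1.5-fold by the quasi-likelihood test of edgeR, with p-values adjusted after Benjamini and Hochberg over all 20238 genes tested. In WT, 4 of 38 members were called, all higher, while 11.4% of all genes were called and 5.55% were called higher. In +/1013 it was 6 of 38, 4 higher and 2 lower, with 12.5% of all genes called, 6.44% higher and 6.02% lower. In 1013/1013 it was 4 of 38, all higher, with 13.1% of all genes called and 6.94% higher. The count of members called by edgeR was near the background in each genotype. DESeq2 called 6, 11 and 9 of 39 members, against 12.4%, 13.7% and 15.3% of its 32878 genes, adding Nr4a1 and Hspb1 in WT, then Nr4a2, Ier3, Ier5, Dusp1 and Gadd45g in +/1013, and Fosb, Nr4a2, Nr4a3, Ier5 and Dnajb1 in 1013/1013. In the main edgeR fit, 11, 13 and 13 of 38 members had an unadjusted p under 0.05 in WT, +/1013 and 1013/1013, against 26.7%, 27.6% and 28.3% of all genes. Positive changes were seen in 30, 24 and 26 of 38 members, against 55.4%, 48.4% and 41.8% of all genes. All SSC libraries of a genotype lay above its OPC libraries for 15, 13 and 6 of 38 members, against 22.2%, 18.1% and 18.4% of all genes, and below for Dnajb1 in WT (15.7%), Fosb and Egr3 in +/1013 (17%) and Dusp5 in 1013/1013 (21.8%). The median log2 fold change of the members was 0.72, 0.51 and 0.56 in WT, +/1013 and 1013/1013, against 0.17, 0.00 and -0.20 over all genes. In 1013/1013 that median was 1.16 without SSC replicate 1 and -0.37 without SSC replicate 2. Without the 3 libraries with over 1% leukocyte transcripts, an alternative chosen after seeing the data, Hspa8 was the 1 member called in WT and the median was 0.14.

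**Figure D3:**
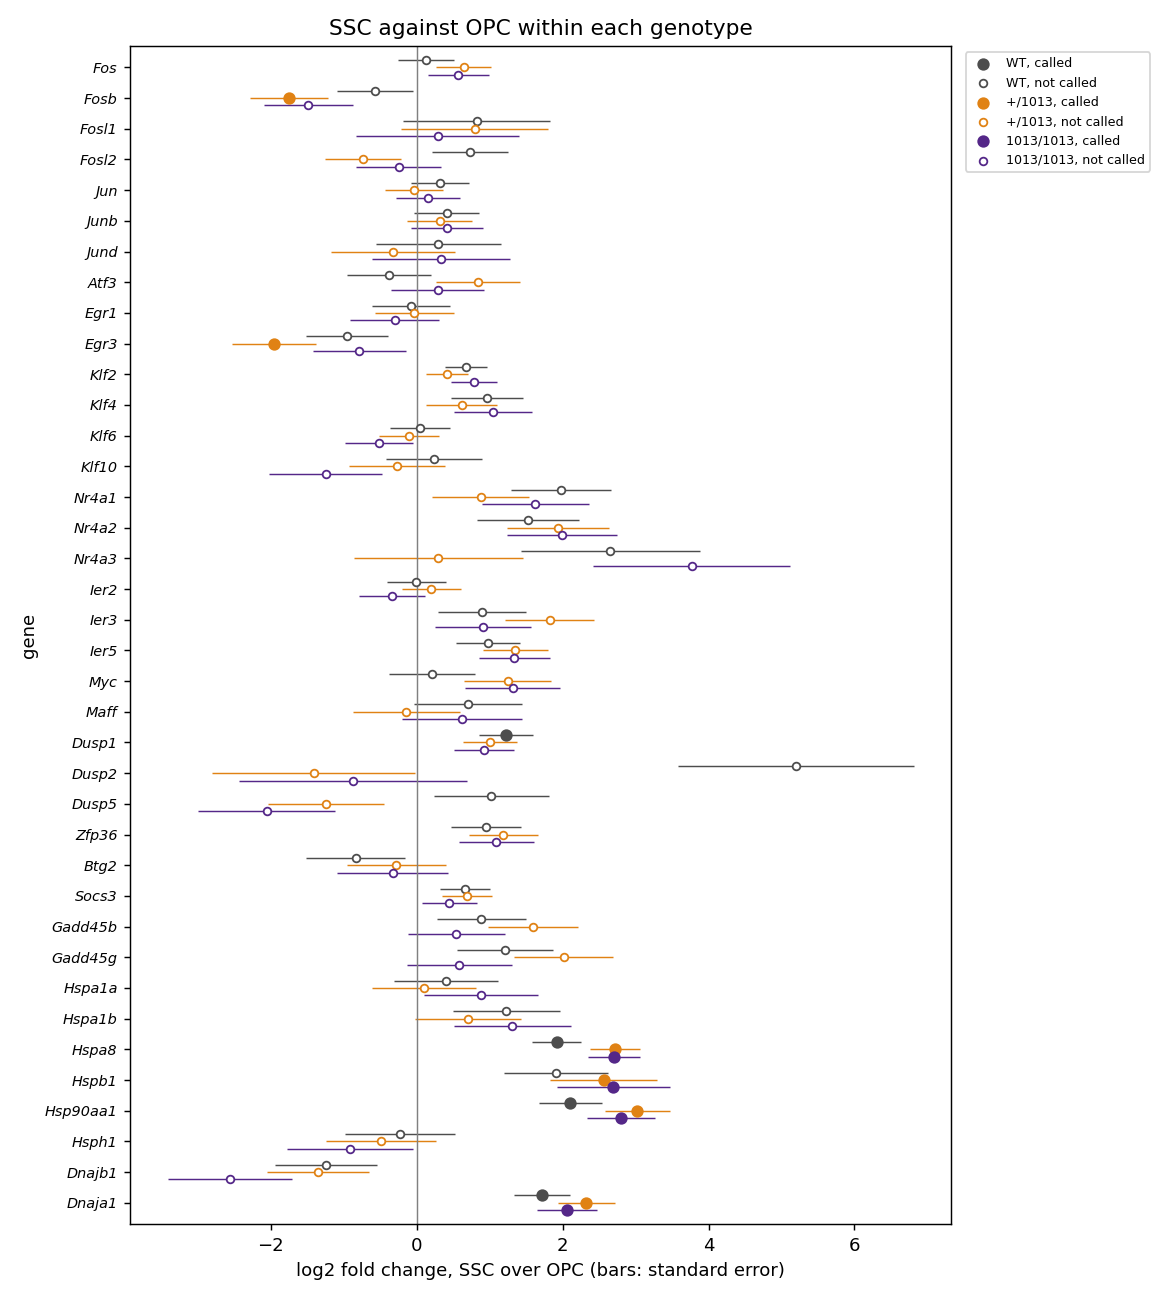
Log2 fold change of SSC over OPC for each gene (edgeR, bars are SE) in WT, +/1013 and 1013/1013; filled points were called and open points were not. Hspa8, Hsp90aa1 and Dnaja1 are filled and to the right in all 3 genotypes, at 1.72 to 3.02, and most immediate-early genes are open.

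The constitutive HSP70 Hspa8, which folds new proteins and strips clathrin from vesicles, gave the clearest difference. Its levels in OPC were 251, 223 and 208 CPM in WT, 293, 169 and 244 in +/1013, and 214, 160 and 235 in 1013/1013. In SSC they were 804, 783 and 990 CPM in WT, 1530, 2120 and 988 in +/1013, and 840 and 1800 in 1013/1013. Every SSC library was above every OPC library. The log2 fold change of SSC over OPC was 1.92 (SE 0.33) in WT, 2.71 (SE 0.34) in +/1013 and 2.70 (SE 0.36) in 1013/1013, with adjusted p = 0.00232, 0.00017 and 0.000315, and the call was kept in all 26 alternatives in each genotype.

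Hsp90aa1 encodes the inducible cytosolic HSP90, which matures kinases and nuclear receptors. In OPC it was at 44.4, 33.4 and 27.8 CPM in WT, 50.3, 25.0 and 39.9 in +/1013, and 45.3, 26.6 and 33.3 in 1013/1013. The SSC levels were 166, 122 and 167 CPM in WT, 240, 526 and 171 in +/1013, and 149 and 339 in 1013/1013, again with no overlap. The log2 fold changes were 2.11 (SE 0.43), 3.02 (SE 0.45) and 2.80 (SE 0.47), with adjusted p = 0.00644, 0.000591 and 0.00171.

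Dnaja1, a J-domain co-chaperone that feeds clients to HSP70, followed the same order. Its OPC levels were 41.8, 31.2 and 25.8 CPM in WT, 39.9, 24.7 and 32.2 in +/1013, and 51.2, 28.2 and 29.6 in 1013/1013. Its SSC levels were 95.2, 80.3 and 151 CPM in WT, 141, 247 and 97.2 in +/1013, and 115 and 189 in 1013/1013. The ranges did not overlap, and the log2 fold changes were 1.72 (SE 0.38), 2.32 (SE 0.39) and 2.06 (SE 0.41), with adjusted p = 0.0103, 0.00153 and 0.00546. Without the libraries with over 1% leukocyte transcripts, the WT changes were 1.89 for Hsp90aa1 (adjusted p = 0.0819 by edgeR) and 1.27 for Dnaja1 (adjusted p = 0.137), and neither was called.

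Hspb1, the small heat shock protein whose promoter window is printed above with 2 heat shock elements, holds unfolded proteins and binds actin. OPC levels were 33.1, 8.85 and 6.13 CPM in WT, 36.4, 7.09 and 18.2 in +/1013, and 16.4, 5.18 and 17.6 in 1013/1013. SSC levels were 84.5, 54.5 and 41.7 CPM in WT, 121, 172 and 72.4 in +/1013, and 51.8 and 117 in 1013/1013. The 8 SSC libraries were all above the 9 OPC libraries, but replicates of Hspb1 in OPC were far apart, and the log2 fold change of 1.91 (SE 0.72) in WT did not pass (adjusted p = 0.105), while 2.56 (SE 0.73) and 2.70 (SE 0.78) in +/1013 and 1013/1013 did (adjusted p = 0.0347 and 0.0362).

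These 4 chaperones were the members whose SSC libraries all lay above all OPC libraries, against 5.71% of all genes tested, and no member lay wholly below, where 5.16% of all genes did. The other 4 chaperones passed edgeR's test in no genotype. Hspa1a and Hspa1b, the stress-inducible HSP70 genes, spanned 19.8 to 204 and 17.2 to 180 CPM in OPC and 33.4 to 164 and 51.2 to 290 CPM in SSC. Hsph1, an HSP70 nucleotide exchange factor, was at 41.4 to 68.6 CPM in OPC and 1.12 to 69.9 CPM in SSC, with the lowest value in 1013/1013 replicate 1. Dnajb1, the stress-inducible J-domain partner of HSP70, had the opposite sign: 173 to 2050 CPM in OPC and 103 to 315 CPM in SSC, with log2 fold changes of -1.24, -1.35 and -2.56, the last with SE 0.85 and adjusted p = 0.0653. The chaperones were thus split by gene, with the median log2 fold change over the 8 at 1.48, 1.52 and 1.69 in the 3 genotypes.

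**Figure D4:**
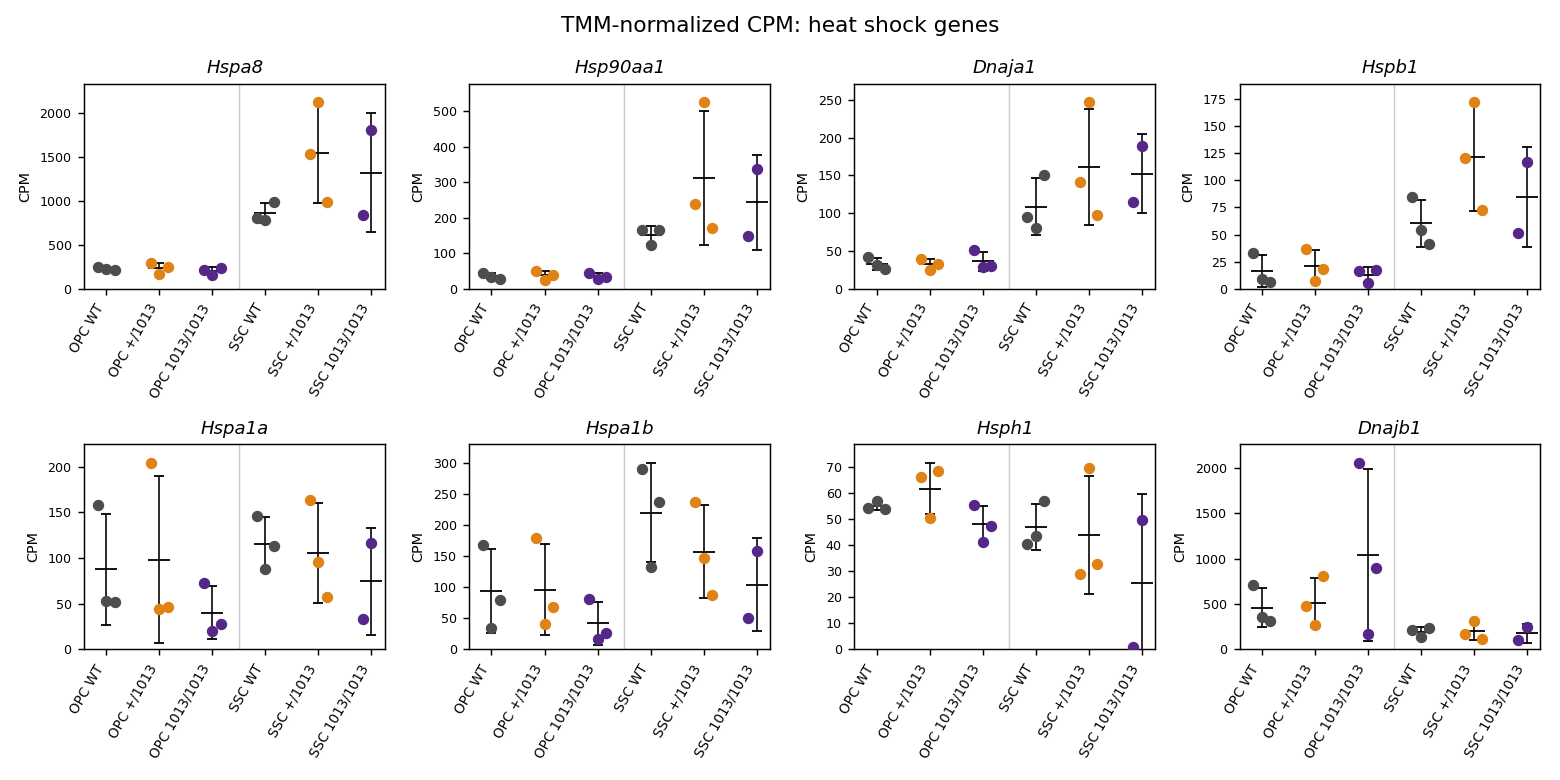
Levels of the 8 chaperones in CPM (vertical axis, one panel a gene) by cell type and genotype; points are libraries and bars the mean ± SD (n = 3, and 2 for 1013/1013 SSC). For Hspa8, Hspb1, Hsp90aa1 and Dnaja1 the SSC points lie above all OPC points, and for Dnajb1 the highest points are OPC libraries.

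Among the FOS genes, Fos itself was called in no genotype. OPC libraries had 6650, 4410 and 2700 CPM in WT, 6620, 3870 and 4730 in +/1013, and 7500, 3060 and 5600 in 1013/1013. SSC libraries had 5310, 4960 and 4760 CPM in WT, 7410, 10600 and 5770 in +/1013, and 6740 and 9250 in 1013/1013. The ranges overlapped in every genotype, and the log2 fold changes were 0.13, 0.65 and 0.57.

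Fosb, which gives a FOS protein and a shorter stable form, was lower in SSC of +/1013. It was at 665, 373 and 212 CPM in WT OPC, 783, 315 and 441 in +/1013 OPC, and 835, 218 and 537 in 1013/1013 OPC. SSC libraries had 237, 249 and 357 CPM in WT, 101, 210 and 147 in +/1013, and 125 and 253 in 1013/1013. In +/1013 the 2 populations did not overlap and the log2 fold change was -1.75 (SE 0.53, adjusted p = 0.0467). In WT it was -0.57 and in 1013/1013 -1.49 (adjusted p = 0.129), where ranges overlapped. The call was lost in 12 of 26 alternatives.

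Fosl2 (FRA2), a FOS protein of osteoblasts, was at 64.1, 32.0 and 29.6 CPM in WT OPC, 55.1, 40.6 and 50.8 in +/1013 OPC, and 69.9, 33.6 and 37 in 1013/1013 OPC. In SSC it was at 47.6, 50.3 and 110 CPM in WT, 12.5, 51.0 and 24.7 in +/1013, and 24.7 and 54.2 in 1013/1013, overlapping with OPC throughout. Fosl1 was at 0.747 to 4.85 CPM in OPC and 0.678 to 9.83 CPM in SSC. With 57.2% of its exon bases opposite Ccdc85b, its level is not read further, as for Jund.

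Jun, the main AP-1 partner of Fos, varied more in OPC than in SSC. It was at 1770, 1200 and 539 CPM in WT OPC, 1960, 1120 and 1230 in +/1013 OPC, and 2080, 775 and 1630 in 1013/1013 OPC. In SSC it was at 1440, 1550 and 1380 CPM in WT, 1520, 1400 and 1290 in +/1013, and 1530 and 1810 in 1013/1013. The highest library was 3.86 times the lowest in OPC and 1.4 times in SSC, and all SSC values lay within the OPC range. Junb, at 452 to 1610 CPM in OPC and 818 to 2030 CPM in SSC, was not called either.

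No EGR gene was called higher in SSC. Egr1 was at 4490, 2220 and 1140 CPM in WT OPC, 4400, 1950 and 2580 in +/1013 OPC, and 5690, 1280 and 2920 in 1013/1013 OPC. In SSC it was at 2590, 2630 and 2200 CPM in WT, 3010, 3060 and 2650 in +/1013, and 1610 and 3750 in 1013/1013, inside the OPC range. Egr3, a relative that follows Egr1 at far lower level, was at 13.9, 9.47 and 4.08 CPM in WT OPC, 15.8, 13.5 and 7.86 in +/1013 OPC, and 18, 9.85 and 8.42 in 1013/1013 OPC. Its SSC levels were 3.00, 5.41 and 5.81 CPM in WT, 2.12, 5.71 and 1.76 in +/1013, and 5.02 and 8.99 in 1013/1013. Egr3 was lower in SSC of +/1013, with no overlap and a log2 fold change of -1.95 (SE 0.58, adjusted p = 0.0403 by edgeR), a call lost in 8 of 26 alternatives, and was at -0.95 in WT and -0.79 in 1013/1013 without a call.

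The 4 KLF genes, Krüppel-like factors with roles in quiescence and differentiation, were called in no genotype. Klf6 was at 543, 422 and 350 CPM in WT OPC, 506, 407 and 695 in +/1013 OPC, and 959, 358 and 751 in 1013/1013 OPC, and in SSC at 441, 282 and 638 CPM in WT, 398, 749 and 342 in +/1013, and 373 and 593 in 1013/1013. Klf2 was at 169, 214 and 154 CPM in WT OPC, 157, 208 and 234 in +/1013 OPC, and 244, 164 and 323 in 1013/1013 OPC, and in SSC at 268, 276 and 310 CPM in WT, 317, 286 and 192 in +/1013, and 303 and 534 in 1013/1013. WT SSC lay above WT OPC for Klf2 without overlap, but the adjusted p was 0.153 (edgeR). Klf4 ranged over 62.4 to 215 CPM in OPC and 138 to 360 CPM in SSC, and Klf10 over 166 to 735 and 80.8 to 579 CPM.

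The NR4A genes, orphan nuclear receptors induced by cAMP and ERK signals, were higher in SSC on average in all 3 genotypes, with a median log2 fold change of 1.97, 0.88 and 2.00, but none was called by edgeR. Nr4a1 was at 502, 253 and 201 CPM in WT OPC, 800, 225 and 241 in +/1013 OPC, and 363, 240 and 248 in 1013/1013 OPC. In SSC it was at 503, 603 and 2650 CPM in WT, 625, 1070 and 626 in +/1013, and 467 and 1290 in 1013/1013. The WT fold change of 1.97 (SE 0.68, adjusted p = 0.08) did not pass. The highest of its values was that of WT replicate 3, the SSC library with leukocyte transcripts, whose part in the result was not tested.

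Nr4a3 was near the detection floor in part of the OPC libraries, at 3.16, 0.91 and 0.0838 CPM in WT, 16.2, 0.835 and 2.28 in +/1013, and 2.59, 1.04 and 1.11 in 1013/1013. SSC libraries had 3.68, 2.74 and 19.9 CPM in WT, 6.72, 13.6 and 3.39 in +/1013, and 24.8 and 18.4 in 1013/1013. In 1013/1013 the 2 SSC libraries lay above the OPC libraries, with a log2 fold change of 3.77 (SE 1.35, adjusted p = 0.0839 by edgeR). Nr4a2 was at 32.2 to 76.9 CPM in OPC and 43.1 to 433 CPM in SSC.

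Of the other early response genes, Ier2, a short-lived nuclear protein, overlapped between the populations in every genotype. It was at 689, 471 and 344 CPM in WT OPC, 549, 410 and 558 in +/1013 OPC, and 1210, 321 and 776 in 1013/1013 OPC, and in SSC at 520, 444 and 533 CPM in WT, 550, 691 and 502 in +/1013, and 403 and 811 in 1013/1013. Ier5, which activates heat shock factor 1, was at 78.5, 51.2 and 48.8 CPM in WT OPC, 63.0, 52.2 and 94.6 in +/1013 OPC, and 137, 64.6 and 108 in 1013/1013 OPC. In SSC it was at 137, 86.9 and 127 CPM in WT, 144, 273 and 118 in +/1013, and 125 and 398 in 1013/1013. Ier5 did not overlap between the populations in WT and +/1013, yet its log2 fold changes of 0.97, 1.35 and 1.34 gave adjusted p = 0.176, 0.0634 and 0.0858 in edgeR. Maff, a small partner of AP-1 and NRF proteins, was at 31.6, 11.9 and 4.77 CPM in WT OPC, 53.7, 12.5 and 19.1 in +/1013 OPC, and 30.0, 8.33 and 18.2 in 1013/1013 OPC, and in SSC at 24.7, 22.0 and 32.0 CPM in WT, 19.4, 38.2 and 19.7 in +/1013, and 9.41 and 48.6 in 1013/1013. Ier3 was at 65.1 to 370 CPM in OPC and 180 to 740 CPM in SSC and was not called by edgeR.

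Among the brakes, Dusp1, the nuclear phosphatase that switches off p38 and JNK and whose promoter stretch with a CRE is printed above, was higher in SSC of WT. It was at 962, 752 and 414 CPM in WT OPC, 901, 660 and 658 in +/1013 OPC, and 1070, 661 and 805 in 1013/1013 OPC. In SSC it was at 1680, 1230 and 2050 CPM in WT, 1400, 1820 and 1230 in +/1013, and 911 and 2290 in 1013/1013. WT and +/1013 did not overlap. The log2 fold change was 1.22 (SE 0.37, adjusted p = 0.049 by edgeR) in WT, a call lost in 16 of 26 alternatives, and 1.00 and 0.92 (adjusted p = 0.0954 and 0.153) in the mutants.

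Dusp2, an ERK phosphatase best known in leukocytes, and Dusp5, a nuclear ERK phosphatase, were uneven between libraries. Dusp2 was at 2.66, 1.27 and 3.33 CPM in WT OPC, 3.84, 0.719 and 10 in +/1013 OPC, and 3.88, 17.1 and 7.69 in 1013/1013 OPC, and in SSC at 5.67, 1.5 and 259 CPM in WT, 0.463, 3.91 and 1.12 in +/1013, and 4.44 and 6 in 1013/1013. The value of 259 CPM is from WT SSC replicate 3 and the value of 17.1 CPM from 1013/1013 OPC replicate 2, both with leukocyte transcripts. Dusp5 was at 47.0, 27.0 and 23.2 CPM in WT OPC, 28.7, 14.0 and 77.9 in +/1013 OPC, and 145, 42.7 and 81.5 in 1013/1013 OPC, and in SSC at 27.2, 18.4 and 152 CPM in WT, 19.4, 17.3 and 14.1 in +/1013, and 9.63 and 33.5 in 1013/1013, so that its highest SSC value was again in WT replicate 3. The other brakes were not called by edgeR: Zfp36 at 249 to 1020 CPM in OPC and 695 to 1930 CPM in SSC, Socs3 at 327 to 998 and 645 to 1360 CPM, Btg2 at 289 to 1850 and 275 to 1470 CPM, Gadd45b at 69.0 to 318 and 99.5 to 627 CPM, and Gadd45g at 67.5 to 482 and 224 to 923 CPM.

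**Figure D5:**
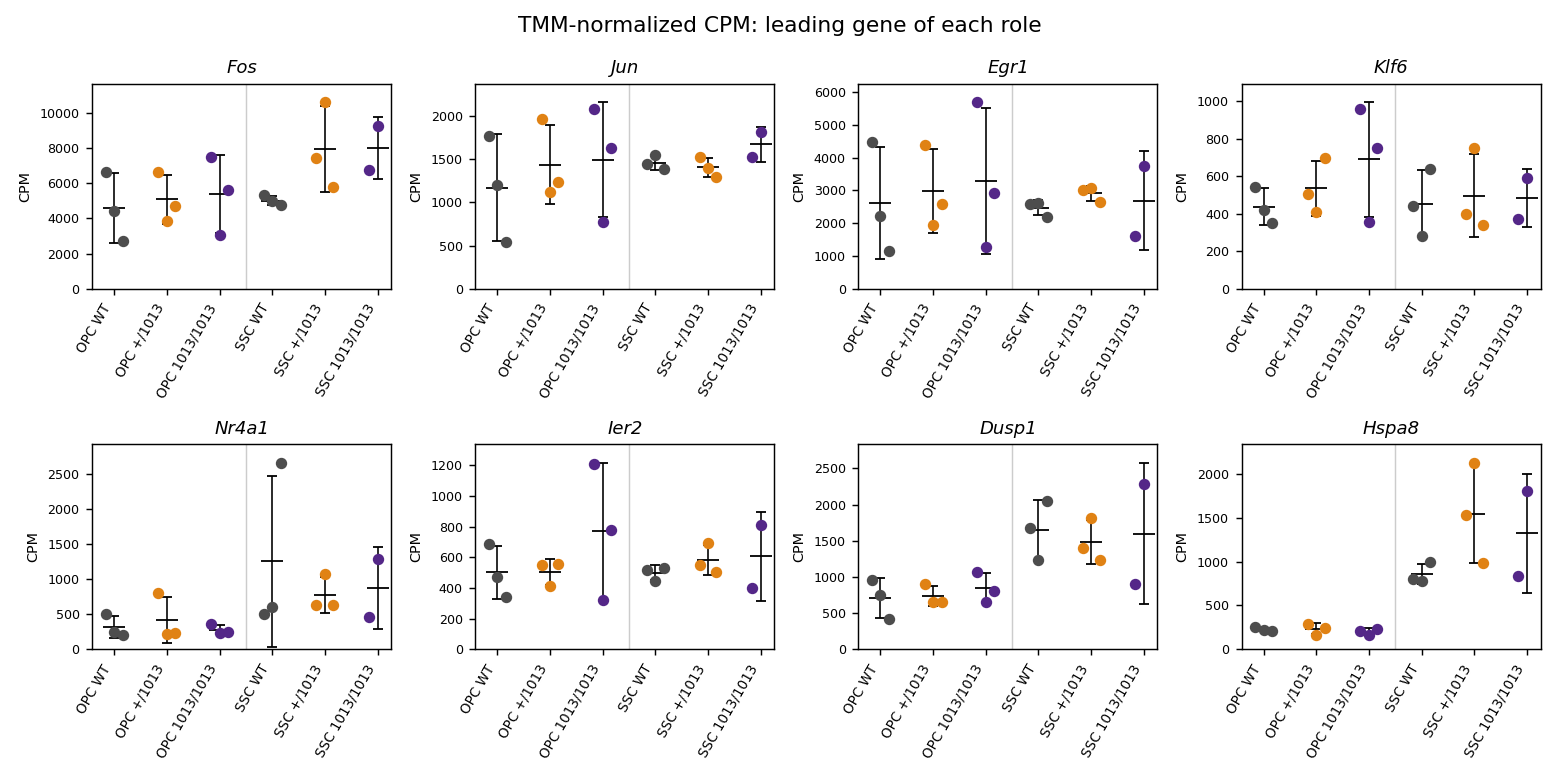
Levels in CPM (vertical axis) of the most abundant gene of each role group by cell type and genotype; points are libraries and bars the mean ± SD (n = 3, and 2 for 1013/1013 SSC). Hspa8 separates SSC from OPC, while Fos, Jun, Egr1, Klf6 and Ier2 overlap between the populations and spread widely within OPC groups.

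Genotypes were then compared within OPC to ask whether the gain-of-function receptor goes with a different level of early response or chaperone transcripts. None of the 38 members was called by edgeR in either genotype against WT, with 0 (+/1013) and 0.00617% (1013/1013) of all 16207 genes called. DESeq2 also called no member, beside 66 (+/1013) and 65 (1013/1013) of its 29246 genes. At an unadjusted p under 0.05, 0 members passed in +/1013, against 2.04% of all genes, and 1 of 38 in 1013/1013, against 3.38%. No member of +/1013 OPC lay wholly above or below WT, against 2.82% and 2.46% of all genes. The 2 comparisons share their WT libraries.

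In +/1013 OPC the members lay slightly above WT nearly throughout: 37 of 38 had a positive log2 fold change, against 49.4% of all genes, with a median of 0.18. Without WT replicate 3 and 1013/1013 replicate 2, the OPC libraries with leukocyte transcripts, 20 of 38 were positive and the median was 0.01, and without WT replicate 1 it was 38 of 38 with a median of 0.63. WT replicate 3 was also the library with the lowest member levels in OPC. The smallest unadjusted p-values were those of Nr4a3 (log2 fold change 2.21, SE 1.35), Dusp2 (1.00, SE 0.90) and Maff (0.82, SE 0.79), all with adjusted p = 1 (edgeR). Each rested on 1 library: without +/1013 replicate 1 the change was 0.18 for Nr4a3 and -0.02 for Maff, and without +/1013 replicate 3 it was -0.09 for Dusp2.

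In 1013/1013 OPC, 30 of 38 were positive, against 50.9% of all genes, with a median of 0.35, which went from 0.04 without 1013/1013 replicate 1 or WT replicate 3 to 0.66 without 1013/1013 replicate 2 and 0.83 without WT replicate 1. The 8 brakes were all positive, with a median of 0.81, and 6 of 8 chaperones were negative, with a median of -0.18. Ier5 had the smallest unadjusted p, at a log2 fold change of 0.79 (SE 0.34), followed by Dusp5 at 1.47 (SE 0.66) and Dusp2 at 1.97 (SE 0.92), with adjusted p = 1 in edgeR for each. Dusp2 was the 1 member above all WT values in all 3 libraries, against 3.98% of all genes, and none lay below, against 3.63%. Hspa1a and Hspa1b were at -1.12 and -1.16, and Dnajb1 at 1.18, with replicates spread from 173 to 2050 CPM in that genotype. None of these changes passed the test.

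Within SSC, 0 of 38 members were called by edgeR in either mutant against WT, where 0.0736% (+/1013) and 0 (1013/1013) of the 17659 genes were called. DESeq2 also called 0 members, beside 1396 (+/1013) and 1889 (1013/1013) of its 28701 genes. Unadjusted p-values were under 0.05 for 6 of 38 in +/1013 (15.8%), near the 17.3% of all genes, and for 1 of 38 in 1013/1013 (2.63%), below the 18.3% of all genes. Changes were positive for 21 of 38 in +/1013, against 44.8% of all genes, and for 26 of 38 in 1013/1013, against 42.1%, with medians of 0.05 and 0.24 against -0.11 and -0.23 over all genes. The +/1013 median was -0.16 without +/1013 replicate 2, -0.09 without WT replicate 2 and 0.33 without WT replicate 3, and the 1013/1013 median was -0.54 without 1013/1013 replicate 2 and 0.78 without replicate 1. The WT libraries are shared here too, and they differed from all mutant libraries without overlap in several measures. Reads outside annotated genes were 3.68% to 4.15% in WT against 1.5% to 2.69% in the mutants. Genes with a count numbered 21449 to 22599 against 15748 to 19227. Type I collagen took 2.24% to 2.78% of counts against 0.563% to 1.17%. Ly6a was at 386 to 599 CPM against 838 to 1450 CPM. The part of these differences in the genotype comparisons was not tested.

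Atf3 and Myc were the members with the highest positive changes in both mutant SSC groups. Atf3 was at 629, 394 and 909 CPM in WT SSC, 1450, 2680 and 971 in +/1013, and 1020 and 2400 in 1013/1013. All mutant libraries lay above all WT libraries, with log2 fold changes of 1.38 (SE 0.51, adjusted p = 0.234 by edgeR) and 1.40 (SE 0.55, adjusted p = 0.24 by edgeR). In OPC, Atf3 was at 1300, 711 and 510 CPM in WT, 1090, 602 and 1170 in +/1013, and 2100, 442 and 1660 in 1013/1013, with overlap throughout.

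Myc, a growth regulator that responds early to mitogens, was at 171, 187 and 162 CPM in WT SSC, 404, 751 and 317 in +/1013, and 140 and 834 in 1013/1013. The +/1013 libraries lay above WT, at a log2 fold change of 1.48 (SE 0.60, adjusted p = 0.267 by edgeR). In 1013/1013 the 2 libraries stood on either side of WT: the fitted change was 1.48 (SE 0.65), and it was -0.33 without replicate 2 and 2.25 without replicate 1. In OPC, Myc was at 232, 143 and 75.5 CPM in WT, 256, 130 and 234 in +/1013, and 266, 87.6 and 233 in 1013/1013. Ier5 in 1013/1013 SSC likewise went from 1.16 (SE 0.52, adjusted p = 0.286 by edgeR) to 0.07 without replicate 2.

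In +/1013 SSC, Fos, Atf3, Egr1, Ier3, Myc and Hsp90aa1 lay above all WT libraries, or 6 of 38, where 15% of all genes did, and Fosb lay below, where 16.2% did. In 1013/1013 SSC those above were Fos and Atf3, against 16.4% of all genes. Fos had a mean of 5008 ± 277 CPM (SD, n = 3) in WT SSC, 7936 ± 2470 (n = 3) in +/1013 and 7995 ± 1776 (n = 2) in 1013/1013, with log2 fold changes of 0.64 (SE 0.28) and 0.68 (SE 0.31) and adjusted p of 0.296 and 0.297 in edgeR. Fosb was at -0.91 (SE 0.36, adjusted p = 0.262) in +/1013, opposite to Fos, and neither change passed the test.

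Among the chaperones in mutant SSC, 5 of 8 were above WT in +/1013 and 4 of 8 in 1013/1013, without a call. Hspa8 had a mean of 859 ± 114 CPM in WT SSC, 1544 ± 565 in +/1013 and 1321 ± 680 in 1013/1013, and Hspb1 was at 1.00 (SE 0.43, adjusted p = 0.286 by edgeR) in log2 fold change in +/1013. In 1013/1013 the stress-inducible Hspa1a (-0.64) and Hspa1b (-1.08), Hsph1 (-0.91) and Dnajb1 (-0.14) had negative changes that did not pass the test. The median over the 8 chaperones was 0.29 in +/1013 and 0.17 in 1013/1013. Dusp2 had the smallest p of all members in +/1013, at -5.65 (SE 1.93, adjusted p = 0.212 by edgeR), and was at -4.11 (SE 2.13) in 1013/1013. Without WT replicate 3, at 259 CPM and 1.72% leukocyte transcripts, the Dusp2 change in +/1013 was -0.98 (adjusted p = 0.822). Dusp5 in +/1013 was at -2.0 (SE 0.83, adjusted p = 0.277 by edgeR).

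Between the mutant SSC groups, 1013/1013 against +/1013, 0 of 38 members were called by edgeR or DESeq2. Of all genes, edgeR called 0 and DESeq2 239 of its 28701. No member had an unadjusted p under 0.05 in edgeR, against 5.53% of all genes. Klf2 came nearest, at 0.68 (SE 0.30, adjusted p = 0.788 by edgeR), followed by Egr3 at 1.16 (SE 0.69) and Nr4a3 at 1.49 (SE 0.92). Jun, Nr4a3 and Dusp2 lay above the +/1013 libraries without overlap, where 6.54% of all genes did, and none lay below, where 9.33% did. Of the members, 23 of 38 were positive, against 45.1% of all genes, but all 8 chaperones were negative, with a median of -0.41. The 2 libraries of 1013/1013 differed as described above, and none of these changes passed the test.

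Whether the genotype effect differed between the populations was tested as the change in SSC minus the change in OPC. None of 38 members was called by edgeR or DESeq2 for +/1013 or 1013/1013. Of all genes, edgeR called 0.084% and 0.153% of 20238, and DESeq2 502 and 1274 of its 32878. The median difference of the members in edgeR was -0.10 and 0.01. Unadjusted p-values were under 0.05 for 1 and 2 of 38, against 10.6% and 15% of all genes, and 17 and 20 of 38 differences were positive, against 45.2% and 39.9%. Dusp2 had the smallest p in both, at -6.61 (SE 2.10, adjusted p = 0.354) and -6.07 (SE 2.30, adjusted p = 0.261), which became -1.97 and -1.44 without WT SSC replicate 3. Next were Dusp5, at -2.27 and -3.08, which became -0.74 and -1.55 without that library, and Fosl2, at -1.46 (SE 0.73) for +/1013. Hspa8, the gene with the clearest difference between the populations, had a difference in genotype effect of 0.80 (SE 0.45, adjusted p = 0.563) for +/1013 and 0.78 (SE 0.48, adjusted p = 0.452) for 1013/1013.

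Related genes outside the 39 were followed as 3 lists: 39 tested other early response genes, 18 upstream regulators and 33 other chaperones and co-chaperones. None of them was called by edgeR between genotypes or in the tests of the difference in genotype effect. Between SSC and OPC, other chaperones were called in both directions in WT, 4 higher and 5 lower of 33, with 11.4% of all genes called. Higher in all 3 genotypes were Hspb8, a small heat shock protein of chaperone-assisted autophagy (2.94, 3.83 and 3.75), Dnajb6, a J-domain protein that holds aggregating clients (2.42, 2.34 and 2.24), Ptges3, the HSP90 co-chaperone p23 (1.6, 2.29 and 2.36), and Hspd1, the mitochondrial HSP60 (0.90, 0.94 and 1.13). Lower in WT were the chaperones and co-chaperones Fkbp4 (-1.05), Bag1 (-1.0), Cryab (-0.93), Hspa13 (-0.79) and Hspbp1 (-0.61). In +/1013 it was 5 higher and 0 lower, with 12.5% of all genes called, and in 1013/1013 5 higher and 1 lower, with 13.1%.

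Of the other early response genes, 3 of 39 were called in WT, all higher in SSC, and 7 of 39 in each mutant, against the same 11.4%, 12.5% and 13.1% of all genes. The glucocorticoid-induced Tsc22d3 (1.57, 1.26 and 1.07) and Ier5l, a relative of Ier5 (1.30, 1.65 and 2.17), were higher in SSC in all 3 genotypes. The cytokine genes Il6 (6.99 and 5.17) and Ccl2 (5.14 and 5.01) were called higher in SSC in +/1013 and 1013/1013. The small GTPase Rhob (-1.32 and -1.24) was called lower in both. In WT these changes had the same sign without a call, at 3.12, 2.88 and -0.79 (adjusted p = 0.126, 0.13 and 0.13 by edgeR). Of the upstream regulators, which include Srf, Creb1 and Hsf1, Atf1 in 1013/1013 (1.34) was the 1 called in any genotype. In mutant SSC against WT, 28 of 33 other chaperones had a positive change in each genotype, with medians of 0.55 and 0.39, and no call, where 44.8% and 42.1% of all genes were positive with medians of -0.11 and -0.23.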

How the data were processed

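RNA-seq counts were measured in 17 libraries, each a pool of sorted cells. The deposited files hold raw counts per Ensembl gene, for which the authors aligned paired reads of at least 50 bases to mm10 with STAR and counted with HTSeq; versions are not given in the sources used here. The HTSeq lines that name no gene were left out of library sizes (reads with no feature were 1.15% to 4.15%). Gene identifiers were matched to GENCODE M21 symbols for 55154 of 55335 genes, and for all 39 members. The members, roles and further lists were chosen with earlier results of these data known.

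Tests used edgeR 4.0.16 in R 4.3.3 (filterByExpr, TMM, quasi-likelihood with legacy = TRUE), within a cell type for genotypes and over all 17 libraries otherwise, with Benjamini-Hochberg adjustment over all genes tested. DESeq2 1.42.0, other normalisations and filters, fewer or more groups in the fit, a replicate block and each library left out were tried as alternatives; leaving out the 3 libraries over 1% leukocyte transcripts was added after seeing the data. A pseudocount of 0.5 CPM was used for log2 levels. Values in every library are given for the most abundant member of each role, called members, and the 3 members with the smallest p in each comparison. Promoters are from RefSeq (GRCm38.p6).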

Additional observations from a re-analysis of the deposited data

How the results depend on the processing

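The count of 0 members called between genotypes was the same under every alternative except without 1013/1013 SSC replicate 2. There 1 member, Hsph1, was called in 1013/1013 SSC against WT, against +/1013, and in the 1013/1013 difference between SSC and OPC (leave-one-out counts 0 to 1). That fit has 1 library of 1013/1013 SSC, assumed to vary like the other groups, and it called 2931, 1812 and 1960 genes in all. The member medians over leave-one-out fits ran from -0.54 to 0.78, from -0.73 to 0.53 and from -0.86 to 0.46 in these 3 comparisons. Between SSC and OPC, 7 of 36 members were called in WT with at least 10 counts in every library, beside 2610 of all 10144 genes. Without the libraries over 1% leukocyte transcripts 1 member was called (median 0.14), beside 1020 of all 19085 genes. In +/1013 it was 11 with DESeq2, and 10 of 36 with at least 10 counts in every library, beside 2610 of all 10144 genes. Over leave-one-out fits that left every group more than 1 library it was 3 to 8. The 3 were Hspa8, Hsp90aa1 and Dnaja1 without +/1013 SSC replicate 1, where 1571 of 20119 genes were called. The 8 came without 1013/1013 OPC replicate 2, where 2537 of 19679 genes were called. In 1013/1013 the count of members called was 9 with DESeq2, beside 5015 of its 32878 genes, and the leave-one-out medians ran from -0.37 to 1.16. With the replicate number as a block, 3, 5 and 3 members were called between SSC and OPC in WT, +/1013 and 1013/1013 and 0 elsewhere. Of all 20238 genes, that fit called 2042, 2270 and 2063 between SSC and OPC. The replicate numbers share no known source, and no pairing was assumed. Between genotypes of a cell type, deviations of same-numbered libraries correlated at -0.36 to 0.39 in OPC and -0.15 to 0.12 in SSC. Whether SSC and OPC libraries of the same genotype and number came from the same mice is not given. Pairing between the cell types was not checked. Signs were followed gene by gene only for called members and the 3 with the smallest p in each comparison. Of these, Maff (-0.0206, leave-one-out range -0.0206 to 1.77) and Dusp2 (-0.0934, range -0.0934 to 1.51) reversed sign in +/1013 OPC. Myc did so in 1013/1013 SSC (-0.33, range -0.33 to 2.25). Other members changed sign as well: in +/1013 OPC 37 of 38 were positive, and 20 without WT replicate 3. The member median of +/1013 SSC against WT was 0.05 and became -0.00 with DESeq2 size factors, with leave-one-out values of -0.16 to 0.33. Upper-quartile scaling moved the median of all genes in the 1013/1013 difference from -0.39 to -0.26, and that of the members from 0.01 to 0.10. The calls of Hsp90aa1 were lost in WT in 1 of 26 alternatives and kept in the mutants, while Hspb1 lost its call in 4 of 26 in +/1013 and 8 of 26 in 1013/1013. With 2 libraries of 1013/1013 SSC at opposite ends for these genes, no effect of that genotype below the replicate spread could be seen. The cause of these shifts was not tested.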
